A study of Arabidopsis thaliana with 12 samples.

Results

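The probe sets described here read transcripts of the Arabidopsis mitochondrial genome on a short-oligonucleotide array. They number 42 of the 22746 probe sets tested. Of these, 31 form the array's numbered block from 244901 to 244931, and 11 were added because the array annotation gives them nad1 (7 probe sets), nad5 (2), nad6 (1) or cox2 (1) as their only gene. The rule itself uses no measured value, though it was set with earlier results of these arrays known. The annotation names 10 of the 31 block members, so 21 members have a name and 21, all in the block, have none. A RefSeq gene table (TAIR10.1) placed 18 of the named members on the mitochondrial chromosome by symbol or synonym. The other 3 carry chromosome 2 loci, AT2G07751, AT2G07674 and AT2G07776. Among the 7 block members with a mitochondrial symbol, the order of the genes in that table ran strictly against the order of the numbers. No coordinates were checked, and whether the other block members follow the same order is not known. The unnamed members are placed on this genome by their numbers alone, and the sources used here do not say what each one reads.

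The plant mitochondrial genome encodes a small set of membrane subunits of the respiratory chain, parts of the ATP synthase, proteins that attach haem to cytochrome c, ribosomal proteins and many open reading frames of unknown function. Most of its transcripts arise from long primary RNAs that are spliced, edited and trimmed by proteins imported from the cytosol, and the nucleus supplies all remaining subunits of each complex. Nuclear chromosome 2 of Col-0 carries a large copied stretch of mitochondrial DNA, so a probe set for a mitochondrial gene may also match a nuclear locus. Probe sets ending in _s_at, of which there were 10 among the members, are those the array's design marks as matching more than 1 transcript.

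The arrays came from flask cultures of Arabidopsis thaliana Col-0 seedlings in a sugar-containing liquid medium, which were grown to day 9 and then held in darkness for 24 h and through the treatment. Cultures received 10 µM oligomycin, an inhibitor that blocks the proton channel of the mitochondrial ATP synthase, or an equal volume of ethanol, and were harvested after 1 h or 4 h. Each of the 4 groups (ethanol 1 h, oligomycin 1 h, ethanol 4 h, oligomycin 4 h) held 3 arrays labelled as biological replicates, 12 in all, and this number limits the precision. All groups share the genotype, the sugar and the dark period. The labels do not say whether replicates came from separate flasks, so the p-values measure the spread between these arrays. Values below are linear array intensities, given as mean ± SD (n = 3) or array by array in replicate order. Changes are differences of log2(intensity + 16), a scale that understates the change of dim probe sets. Rose and fell are used only where the limma p-value, adjusted over all 22746 probe sets by the Benjamini-Hochberg method, was under 0.05.

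The members were dim. Their means over the 12 arrays ran from 0.483 to 219.6, and 51.4% of their 504 values lay under the added 16. The 27 bacterial control probe sets, which should find no plant target, reached at most 15. By that mark 12 members stayed at or below 15 on every array. In single groups, 18 members had all 3 values at or below 15 in ethanol at 1 h, 17 in oligomycin at 1 h, 21 in ethanol at 4 h and 12 in oligomycin at 4 h. Arrays correlated within groups at 0.975 to 0.993 over all tested probe sets. The only root marker with a probe set of its own, PYK10, a root beta-glucosidase, was bright in ethanol at 4 h (2731 ± 118) and fell in oligomycin (1651 ± 42.3, log2 change −0.72, limma adjusted p = 3.9e-05). None of 5 shoot markers and none of 5 flower and seed markers had a single-gene probe set here, so the tissue label was checked by 1 gene only.

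After 1 h of oligomycin 1 of the 42 members (2.38%) was called, a nad1 probe set, where 3.44% of all tested probe sets were. After 4 h 25 had risen and 1 had fallen. The risers included cox2, nad6 and both nad5 probe sets with linear ratios of 2.97 to 6.11, and they came from every named role: complex I, complex IV, cytochrome c maturation, the splicing maturase and a membrane transport protein. In ethanol none of the members was called between 1 h and 4 h, where 0.00879% of all probe sets were. The background at 4 h was wide, since 36.7% of all tested probe sets were called, 11.4% higher and 25.3% lower. Against this, 25 of 42 members (59.5%) were higher and 1 lower. The median log2 change of the members was 0.54 against −0.10 over all probe sets, whose quartiles were −0.34 and 0.09. In the number block 16 of 31 members (51.6%) were higher and 1 lower, with a median of 0.44. Of the 11 added by gene name, 9 (81.8%) were higher, with a median of 1.23. Under median centring of the arrays the median over all probe sets moved to 0.06. The share of lower among all calls went from 68.9% to 47.1%. The members then had 31 called higher and the same number, 1, called lower, where 31.9% of all probe sets were called.

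Cytochrome c oxidase, complex IV, hands electrons to oxygen, and cox2 encodes its subunit that accepts them from cytochrome c. The cox2 probe set, 244950_at, read 25, 32.7 and 22.7 in ethanol at 1 h and 30.7, 30.1 and 22.3 in oligomycin at 1 h. At 4 h it read 20.5, 24 and 23.4 in ethanol and 98.3, 100.9 and 94.9 in oligomycin. The 3 oligomycin arrays at 4 h stood clear of all 9 others, which lay close together. The 4 h change was 1.56 (95% interval 1.33 to 1.79, limma adjusted p = 2.36e-07, n = 3 per group), from 22.6 ± 1.87 to 98.0 ± 3.01, a linear ratio of 4.33. At 1 h the change was 0.03 (95% interval −0.20 to 0.26), and the 4 h change exceeded the 1 h change by 1.53 (limma adjusted p = 3e-05).

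Complex I, the NADH dehydrogenase that opens the chain, had 13 of the members. At 4 h 10 of them (76.9%) rose, against 11.4% of all probe sets, with a median change of 0.85 over all 13. Since 7 of the 13 read nad1 and 2 read nad5, they are not separate cases. The nad4, nad4L, nad5 and nad6 genes encode parts of its membrane arm. The nad6 probe set, 244953_s_at, read 17.3, 39.4 and 13.2 in ethanol and 40.6, 11.3 and 26.2 in oligomycin at 1 h, so the groups were spread widely and overlapped. At 4 h it read 11.8, 17.9 and 10 in ethanol against 72.8, 79.9 and 89.8 in oligomycin, with no overlap. Its change of 1.73 (95% interval 1.17 to 2.30, limma adjusted p = 2.0e-04, n = 3 per group) was the largest among the 42, a linear ratio of 6.11. The ethanol mean in that ratio, 13.2 ± 4.14, lay under the bacterial control maximum of 15. At 1 h it had been 23.3 ± 14.1, and the change over time in ethanol did not pass the test (−0.38, limma adjusted p = 0.592). In oligomycin the mean went from 26.0 at 1 h to 80.8 at 4 h.

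The nad5 gene was read by a pair of probe sets. At 4 h 257337_at read 15.4, 10.3 and 13.2 in ethanol and 53.4, 77 and 73.1 in oligomycin. The other, 257338_s_at, read 44, 36.1 and 38 in ethanol and 121.6, 107.4 and 122 in oligomycin. In both, every oligomycin array at 4 h lay above every array of the other 3 groups, and the changes were 1.53 (limma adjusted p = 1.05e-04) and 1.27 (limma adjusted p = 4.73e-05). At 1 h 257337_at read 20.9, 41.2 and 21.2 in ethanol and 45.1, 21.3 and 21.9 in oligomycin, and 257338_s_at read 46, 57.3 and 32 against 60.2, 49.5 and 36.5. The 1 h groups overlapped for both, with changes of 0.05 and 0.09. The ethanol mean of 257337_at went from 27.8 ± 11.6 at 1 h to 13.0 ± 2.56 at 4 h, under the bacterial control maximum of 15. That change of −0.57 did not pass the test (limma adjusted p = 0.324). In oligomycin its mean went from 29.4 to 67.8. In 257337_at, as in nad6, replicate 2 of ethanol and replicate 1 of oligomycin were the high arrays at 1 h.

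The nad4L probe set, 244902_at, read 20.1, 27.6 and 26.8 in ethanol at 1 h and 32, 28.5 and 36.3 in oligomycin, a separation by less than the spread within either group that did not pass the test (change 0.24, limma adjusted p = 0.335). At 4 h it read 24, 27 and 21.3 against 61.3, 44.4 and 52.2, and rose by 0.77 (limma adjusted p = 1.92e-04). The nad4 probe set, 244929_at, read 66, 40.1 and 67 in ethanol and 61, 53.2 and 57.2 in oligomycin at 1 h, then 20.7, 43 and 42.8 in ethanol and 63, 75.5 and 72.1 in oligomycin at 4 h. Its rise at 4 h was also 0.77 (limma adjusted p = 0.00571). Unlike in nad4L, but as in nad6 and 257337_at of nad5, the ethanol mean was well below its 1 h level at 4 h. Between 1 h and 4 h the ethanol cultures went from 57.7 ± 15.3 to 35.5 ± 12.8, a change of −0.53 that did not pass the test (limma adjusted p = 0.306), while the oligomycin cultures went from 57.1 ± 3.90 to 70.2 ± 6.46. The nad7 probe set, 244925_at, for a subunit in the matrix arm, stayed at or below 12.4 on every array and was not called at 4 h (change 0.17, 95% interval −0.12 to 0.46).

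The nad1 gene, whose mRNA is joined in plants from separately transcribed pieces by trans-splicing, was the only gene of 7 probe sets. These did not behave as 1. They share a gene, so they are not separate cases, and the annotation does not say which piece each reads. At 4 h 5 of the 7 (71.4%) rose, by 0.60 to 1.39, against 11.4% of all probe sets, and 2 were not called. Only nad1 gave a call at 1 h: 257324_at read 24.3, 30.1 and 31.7 in ethanol and 59.4, 59.6 and 56.7 in oligomycin, with the oligomycin arrays close together and a linear ratio of 2.04. Its 1 h change was 0.74 (95% interval 0.48 to 1.00, limma adjusted p = 0.00352, n = 3 per group), the largest among the 42 at that time. Over all probe sets 2.3% were called higher at 1 h and 1.14% lower, so the share of members called was near the background. Under median centring the share of lower among all 1 h calls went from 33.2% to 22.8%.

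At 4 h 257324_at read 23.7, 32.7 and 22.9 in ethanol and 91.8, 82.1 and 111.5 in oligomycin, a rise of 1.39 (limma adjusted p = 1.80e-06). The levels in oligomycin thus rose from 1 h to 4 h (0.57, limma adjusted p = 0.00266), and all 3 arrays at 4 h lay above all 3 at 1 h. The neighbouring 257325_at read 21.6, 28.7 and 21.8 in ethanol and 43.2, 43.8 and 41.7 in oligomycin at 1 h, then 14.3, 13.1 and 24.9 against 57.9, 46 and 85.9 at 4 h. The groups did not overlap at either time, but only the 4 h change passed the test (1.23, limma adjusted p = 1.10e-04; at 1 h 0.56, limma adjusted p = 0.116). The same held for 257323_at, which read 10.2, 10.1 and 8.9 against 16.9, 22.7 and 19.1 at 1 h (0.46, limma adjusted p = 0.0629). At 4 h its values were 7.3, 15.3 and 7 against 26.1, 30.9 and 33.5 (0.85, limma adjusted p = 1.41e-04).

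Another pair of nad1 probe sets rose at 4 h with smaller differences at 1 h. For 257321_at the 4 h values were 19.4, 33.9 and 26.4 in ethanol and 50.4, 67.9 and 73.8 in oligomycin (0.91, limma adjusted p = 4.97e-04), and at 1 h they were 22.7, 28.2 and 21.7 against 35.5, 23.5 and 24.2, which overlapped. For 257322_at they were 27.9, 35.2 and 32.7 against 53.7, 49.4 and 67.7 at 4 h (0.60, limma adjusted p = 9.75e-04) and 36.8, 44.5 and 44.6 against 53.3, 52.3 and 44.9 at 1 h. In that probe set ethanol stood lower at 4 h than at 1 h, so the oligomycin means of 50.2 ± 4.59 and 56.9 ± 9.57 were close while the ethanol means were 42.0 ± 4.47 and 31.9 ± 3.71. The change over time in ethanol was −0.27 and did not pass the test (limma adjusted p = 0.362).

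The last pair of nad1 probe sets was dim. At 4 h 257327_at read 1.6, 14.3 and 2.2 in ethanol and 14.8, 12.4 and 17.2 in oligomycin, with 1 ethanol array as high as the oligomycin arrays (0.53, limma adjusted p = 0.0863). At 1 h it read 2.5, 2.8 and 6.6 against 9.8, 16 and 1.9. It was called at 4 h without ethanol replicate 2 (0.78, limma adjusted p = 0.00992), under median centring (0.69, limma adjusted p = 0.0318) and, barely, without oligomycin replicate 3 of 1 h (limma adjusted p = 0.0494). The second, 257329_at, read 11.5, 12 and 19.9 against 15.2, 9.8 and 12.9 at 1 h and 12.6, 10.5 and 8.3 against 10.9, 17.1 and 13.7 at 4 h, and the groups overlapped at both times (0.17 at 4 h, limma adjusted p = 0.329). Its interval of −0.10 to 0.45 lay wholly below that of 257324_at, 1.13 to 1.65, though on a scale that understates changes at its level.

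Cytochrome c maturation attaches haem to the cytochromes that carry electrons between complexes III and IV, and 2 members are its genes. The RefSeq table lists ccb203 as a synonym of ccmFN2 and ccb382 of ccmFN1, which are parts of 1 haem ligation protein split into separate genes in this plant family. The ccb203 probe set, 244919_at, read 7.7, 16.2 and 4 in ethanol and 17.3, 15.5 and 14.2 in oligomycin at 1 h, and 6.2, 16.2 and 12.8 against 28.4, 41.6 and 47.9 at 4 h. It rose at 4 h by 1.00 (95% interval 0.59 to 1.40, limma adjusted p = 0.00107), and its 3 oligomycin arrays at 4 h lay above all 9 others. The ccb382 probe set, 244912_at, was the brightest member, with means of 201 ± 34.3 in ethanol and 265 ± 13.8 in oligomycin at 4 h. Its arrays did not overlap at 4 h, but the change of 0.38 did not pass the test (95% interval −0.05 to 0.81, limma adjusted p = 0.159).

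The remaining named mitochondrial genes both rose at 4 h. The matR gene lies within an intron of nad1 and encodes a maturase that takes part in splicing mitochondrial introns. Its probe set, 244926_s_at, read 1.4, 12.7 and 1.3 in ethanol and 1.4, 1.1 and 6.3 in oligomycin at 1 h, then 1.2, 1.7 and 1.2 against 8.6, 13.3 and 12.7 at 4 h. The 4 h groups did not overlap (0.66, limma adjusted p = 0.0103), but every value lay under the bacterial control maximum of 15, and 1 ethanol array at 1 h read as high as the oligomycin arrays at 4 h. The orfX probe set, 244928_s_at, for the gene RefSeq calls mttB, a relative of the bacterial twin-arginine translocase, was higher in oligomycin at 4 h (26.5 ± 3.16 to 39.4 ± 3.02, 0.39, limma adjusted p = 0.00459). At 1 h it was the other way round, with 32.6 ± 2.07 in ethanol and 25.7 ± 2.86 in oligomycin. All 3 oligomycin arrays were then below all 3 ethanol arrays, and the change of −0.22 did not pass the test (limma adjusted p = 0.251).

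Of the 3 members named by chromosome 2 loci, AT2G07674 (244922_s_at) read 6.6, 9.9 and 2.5 in ethanol and 18.8, 20.7 and 23.6 in oligomycin at 4 h, and rose by 0.74 (limma adjusted p = 6.93e-04). At 1 h it read 7.4, 10.7 and 12.4 against 8.6, 13.9 and 13.6. AT2G07751 (244920_s_at) read 44.8, 33.9 and 39.2 in ethanol against 49, 52 and 51.2 in oligomycin at 1 h, without overlap but short of the test (0.28, limma adjusted p = 0.526). It read 51, 54.5 and 42.7 against 49.4, 91.1 and 106.9 at 4 h, where the groups overlapped, and its call rested on single arrays. Its change was 0.54 (limma adjusted p = 0.0353) with all arrays and 0.36 (limma adjusted p = 0.16) without oligomycin replicate 3, and it was likewise lost without oligomycin replicate 2 (limma adjusted p = 0.123), ethanol replicate 1 (limma adjusted p = 0.0695) or ethanol replicate 3 (limma adjusted p = 0.117). AT2G07776 (244927_at) stood at 13.2 ± 1.39 and 13.0 ± 5.26 at 4 h (−0.02, 95% interval −0.37 to 0.32). Whether these probe sets bind RNA of the nuclear or of the mitochondrial copy was not tested.

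Of the 21 unnamed members, 9 (42.9%) rose at 4 h, 1 (4.76%) fell and 11 were not called, against 11.4% higher and 25.3% lower over all probe sets. Their median change was 0.28 against −0.10 over all. The largest rise was that of 244903_at, which read 47.5, 48.8 and 43.1 in ethanol and 41.7, 46.6 and 65 in oligomycin at 1 h, and 56.8, 40.5 and 36.1 against 130, 114.2 and 119.1 at 4 h (1.19, 95% interval 0.89 to 1.50, limma adjusted p = 2.97e-05). Its 3 oligomycin arrays at 4 h stood above all others. Close behind, 244921_s_at read 41.3, 36.1 and 43.2 against 52.2, 44.7 and 33.5 at 1 h and 30.6, 38.6 and 35.1 against 73.5, 96.5 and 105.3 at 4 h (1.08, limma adjusted p = 5.31e-05). For 244931_at the 4 h values were 3.7, 10.5 and 9.5 against 24.9, 44.9 and 31.9 (1.05, limma adjusted p = 9.52e-05). At 1 h its oligomycin arrays, at 17.4, 17.3 and 19.2, were already above the ethanol arrays, at 12.8, 9.7 and 12.1, without passing the test (0.30, limma adjusted p = 0.337).

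The next rises in size were those of 244906_at and 244923_s_at. The first read 69.3, 48.5 and 55.3 against 63.2, 69.4 and 51.5 at 1 h and 52.4, 60.5 and 43.8 against 82.4, 100.8 and 122.1 at 4 h (0.78, limma adjusted p = 0.00128). The second was dimmer, at 8.2, 1.7 and 11 against 8.5, 9.4 and 9 at 1 h and 2.3, 4.3 and 8.9 against 21.7, 19.5 and 17.6 at 4 h (0.76, limma adjusted p = 0.00143). In both, the 3 oligomycin arrays at 4 h were the highest of all 12. The other 4 risers were 244901_at (0.64), 244904_at (0.53), 244930_at (0.46) and 244909_at (0.44). The call of 244904_at was lost without ethanol replicate 2 (limma adjusted p = 0.0863) or 3 (0.0819) of 4 h or without oligomycin replicate 1 (0.101) or 3 (0.0562) of 4 h. That of 244930_at was lost without replicate 3 of ethanol (limma adjusted p = 0.055) or of oligomycin (limma adjusted p = 0.0625) at 4 h.

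The 1 fall, in 244916_at, ran from 9.7, 6.8 and 7.3 in ethanol to 1.4, 1.5 and 1.3 in oligomycin at 4 h (−0.46, limma adjusted p = 0.00385), with 7.5, 6.8 and 4.2 against 10.8, 9.8 and 5.1 at 1 h. The 3 oligomycin arrays at 4 h were the lowest of all 12, and all 12 values lay under 15. It belongs to the 12 members that never passed 15, of which 2 rose (matR and 244930_at), 1 fell and 9 were not called. Over all probe sets 11.4% were called higher at 4 h and 25.3% lower. Of the members not called at 4 h, 4 had all 3 oligomycin arrays above all 3 ethanol arrays. The matching share among all probe sets not called was not taken. In all, 28 members had non-overlapping groups with oligomycin higher and 1 with oligomycin lower, against 14.5% and 32.3% of all probe sets. At 1 h the counts were 9 and 2, against 6.85% and 12.9%.

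Along the numbered block, where 16 of 31 members (51.6%) rose at 4 h, most of the rises lay in runs. Whether such runs exceed those of an arbitrary order was not tested. All 4 members from 244901 to 244904 rose, as did all 5 from 244919 to 244923 and all 4 from 244928 to 244931. Each run holds 1 call that was lost without single arrays, those of 244904_at, AT2G07751 and 244930_at. The other risers of the block, 244906_at, 244909_at and matR (244926_s_at), lay outside the runs, the first pair of them between the first pair of runs. The longest stretch without a rise also lay there, 9 consecutive members from 244910 to 244918, of which 1 fell. That stretch includes the brightest member, ccb382, but 7 of its 9 members never passed 15. By design mark, 8 of the 10 _s_at members (80%) and 17 of the 32 _at members (53.1%) rose, against 11.4% of all probe sets. That background was not split by mark.

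By the test of the difference between the effects, the oligomycin effect was more positive at 4 h than at 1 h for 15 members and more negative for 1. Among the 15, the 1 h change was negative and not called for orfX (−0.22), 244909_at (−0.16) and matR (−0.13). There the sign of the estimate differed between the times, but a fall at 1 h was not shown. Of all probe sets 17.8% were called by this test, 7.2% higher and 10.6% lower. The share of lower among all those calls was 59.5%, 40.8% under median centring and 32.5% with scaling to the hybridisation controls. The largest differences were in nad6 (1.64, limma adjusted p = 0.00845), cox2 (1.53), 257337_at of nad5 (1.48, limma adjusted p = 0.00451), 257338_s_at of nad5 (1.18, limma adjusted p = 0.003215) and 244903_at (1.11, limma adjusted p = 0.00235). For the nad1 probe sets the difference was smaller, and 2 of 7 passed: 257321_at (0.80, limma adjusted p = 0.0238) and 257324_at (0.65, limma adjusted p = 0.0186). For 257325_at and 257323_at, which with 257324_at had the largest 1 h changes, it was 0.67 (limma adjusted p = 0.0784) and 0.38 (limma adjusted p = 0.156). For orfX, lower at 1 h and higher at 4 h, it was 0.61 (limma adjusted p = 0.00569).

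Within ethanol none of the members was called between 1 h and 4 h by limma, where 0.00879% of all probe sets (2 of 22746) were called, both lower, and 0% were called higher. At an unadjusted p under 0.05 there were 6 members (14.3%), near the 11.9% of all probe sets: 244909_at, 244910_s_at, orfX, nad4, 257322_at of nad1 and 257337_at of nad5, all lower at 4 h. By overlap, 2 members had all 4 h arrays above all 1 h arrays and 5 had them all below, against 5.07% and 9.1% of all probe sets. The median change over the members was −0.09 against −0.03 over all probe sets. Within oligomycin 20 members rose between 1 h and 4 h and 1, 244916_at, fell (23 and 1 with no overlap, against 14.8% and 31.7% of all probe sets), where 33.7% of all probe sets were called, 10.8% higher and 22.8% lower. Under median centring the share of lower among those calls went from 67.8% to 40.7%, and with quantile normalization to 57.6%. The median over the members was 0.39 against −0.09 over all probe sets. The largest rises there were those of cox2 (1.39), nad6 (1.26), 257338_s_at of nad5 (1.05), 244903_at (1.04) and 257337_at of nad5 (0.91). These comparisons share arrays with the comparisons against ethanol.

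Summed over the 42 members, intensity was 962 ± 34.6 in ethanol and 1071 ± 101 in oligomycin at 1 h, and 836 ± 44.1 and 1846 ± 141 at 4 h. As a share of the summed intensity of all tested probe sets this was 0.0327%, 0.0361%, 0.0282% and 0.0613%. The 3 oligomycin arrays at 4 h, at 1698, 1860 and 1980, lay above all 9 others, which ran from 799.5 to 1172. Because the seedlings were measured in bulk, a change in the share of cells or mitochondria and a change in RNA per cell cannot be told apart.

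Another 17 probe sets carry a mitochondrial gene, alone or beside a nuclear locus, and lie outside the block. At 4 h 14 of them (82.4%) rose and none fell, against 11.4% higher and 25.3% lower over all probe sets. Their median change was 0.74 against −0.10 over all. Some of the 17 carry nad1, a gene of the members, beside a nuclear locus. The list is therefore not a wholly separate set of genes. The 3 largest rises were those of the probe sets for rps12 with AT2G07675 (18.0 ± 3.73 to 75.0 ± 4.97, 1.42, limma adjusted p = 9e-06), for atp9 with AT2G07671 (152 ± 37.6 to 419.6 ± 58.5, 1.39) and for atp1 with AT2G07698 (127 ± 11.1 to 319 ± 14.4, 1.23). Their genes encode a ribosomal protein and the ATP synthase subunits c and alpha. Those not called were ccb206, nad2 and the probe set for rpl2 with AT2G07715.

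The chloroplast genome, the cell's other organelle genome, had 69 single-gene probe sets. At 4 h 8 of them (11.6%) rose, near the 11.4% of all probe sets, and 1 (1.45%) fell, against 25.3%, with a median of 0.18 beside −0.10 over all, and none was called for a difference between the 4 h and 1 h effects. The 3 largest rises were ndhF (0.71, limma adjusted p = 0.0187), petD (0.58) and psaA (0.53), for subunits of the chloroplast NADH dehydrogenase-like complex, the cytochrome b6f complex and photosystem I. The nuclear genes for subunits of the respiratory chain and ATP synthase, 36 of 62 listed with a single-gene probe set, had 1 rise (2.78%) and 7 falls (19.4%) beside 11.4% and 25.3% of all probe sets, with a median of −0.12 that lay near the −0.10 over all. The largest changes were AT3G06310 (206 ± 14.1 to 143 ± 15.7, −0.48), AT4G26210 (388 ± 34.7 to 282 ± 19.0, −0.44) and the 1 rise, AT5G25450 (209 ± 49.1 to 285 ± 21.3, 0.43). Of 39 listed nuclear genes for mitochondrial transcription, RNA processing and DNA maintenance, 9 had a single-gene probe set. Of these 3 (33.3%, beside 25.3% of all probe sets) fell, AT5G14580 (36.0 ± 5.97 to 17.4 ± 4.10, −0.64), AT5G46920 (−0.55) and AT1G17630 (−0.46), and none rose.

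The control probe set for cytosolic 25S ribosomal RNA, which like mitochondrial transcripts normally carries no stable poly(A) tail, read 1677 ± 125 in ethanol and 2440.0 ± 46.4 in oligomycin at 4 h, and 1631 ± 146 and 1959 ± 139 at 1 h (exact two-sided permutation p = 0.1 at each time, the smallest that 3 against 3 arrays allow). Per the labels RNA was labelled with an amplification kit, and kits of this type prime from poly(A), which in plant mitochondria is added to RNAs bound for breakdown. The ratio of 3′ to 5′ signal was 1.01 ± 0.0469 in ethanol and 0.842 ± 0.11 in oligomycin at 4 h in 1 GAPDH control and 0.989 ± 0.0337 and 0.936 ± 0.0325 in another. It was 3.20 ± 0.0763 and 3.55 ± 0.298 in 1 actin control, 16.3 ± 2.48 and 13.1 ± 1.44 in another, and 1.91 ± 0.209 and 2.03 ± 0.0481 in the ubiquitin control. The groups overlapped in all 5 ratios at 4 h (exact two-sided permutation p of 0.6 for ubiquitin and 0.2 for each of the others). At 1 h they separated in the second actin control (13.0 ± 1.07 and 15.9 ± 0.773, exact two-sided permutation p = 0.1), in the opposite direction to 4 h. The part of these measures in the rise of the mitochondrial probe sets was not tested.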

How the data were processed

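Values came from 12 arrays, 3 per group. The submitters' processing notes name RMA with no version. The deposited table holds linear intensity per probe set from 0 (166 values) to 6149.7, with a 2% trimmed mean of 100.01 on every array; RMA usually gives log2 values, so the authors' background, summary and scaling steps are not known here. The deposited values were used without further normalization. No genome build is given in the sources used here, so no coordinates are printed.

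The tests did not use the 64 control probe sets. Intensities were turned to log2(intensity + 16), and limma 3.58.1 in R 4.3.3 fitted 4 group means to all 22746 probe sets, with two-sided moderated tests and Benjamini-Hochberg adjustment over all of them. The code was tested on simulated data. Members and lists were chosen with earlier results of these data known. Values on every array are given for nad1, nad5, nad6, cox2 and the 10 other members with the largest change at 4 h, and for 244916_at and AT2G07751, added after their values were seen. From each comparison list the 3 called probe sets with the largest change are named. The main fit did not pair arrays by replicate number. Deviations of same-numbered arrays correlated at −0.091 to 0.167, and those of differently numbered arrays at −0.170 to 0.121. With 3 arrays per group these values cannot exclude a pairing. Alternatives were a replicate block, other pseudocounts, scalings, priors and weights, a filter on dim probe sets and leaving out each array.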

Additional observations from a re-analysis of the deposited data

Results flagged for a closer look

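For 16 members the effect of oligomycin differed between 4 h and 1 h by the test of the difference itself (limma adjusted p under 0.05; values are the 4 h log2 change minus the 1 h log2 change). For 9 of them the call held under every alternative that fitted the probe set and without each array in turn: nad6 (1.64), cox2 (1.53), nad5 257337_at (1.48), nad5 257338_s_at (1.18), 244903_at (1.11), 244921_s_at (1.01), nad1 257324_at (0.646), orfX (0.607) and 244909_at (0.602).

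For the other 7 it did not. The difference for 244916_at (−0.602) was lost when arrays were scaled to the hybridisation controls (limma adjusted p = 0.0517). That for 244931_at (0.75) was lost with a pseudocount of 1 and without replicate 1 or 2 of oligomycin at 1 h or replicate 1 of ethanol at 4 h (limma adjusted p of 0.0503 to 0.0627). That for nad1 257321_at (0.799) was lost with a pseudocount of 1 and without any of 6 arrays (0.0538 to 0.0632). Those for AT2G07674 (0.643), matR (0.788), 244906_at (0.708) and nad4L (0.527) were lost with a pseudocount of 1 and without 7 or 8 of the 12 arrays, with limma adjusted p of at most 0.0849, 0.106, 0.0902 and 0.0977 in those fits. Further losses were those of 244906_at with the replicate block (0.0589), of nad4L with the replicate block (0.0669), hybridisation-control scaling (0.0552) or array weights (0.0553), and of matR with a pseudocount of 32 (0.0569) or hybridisation-control scaling (0.0805).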

How the results depend on the processing

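At 4 h 23 of the 26 calls held under every alternative that fitted the probe set and without each array; those of 244904_at, AT2G07751 and 244930_at did not. No alternative turned the sign of the 4 h change of the 21 members given array by array under the rule or of the members' median at 1 h or 4 h. Median centring turned the median over all probe sets from −0.10 to 0.06 at 4 h, from −0.05 to 0.07 for the difference between effects (0.03 with scaling to the hybridisation controls), from −0.03 to 0.02 over time in ethanol and from −0.09 to 0.08 over time in oligomycin. Numbers of members called were as follows. At 4 h, 26 became 16 without the dimmest 40% of probe sets, which left 17 members in the fit. Of all probe sets 55.8% were called there, against 36.7% in the main fit. Without single arrays 23 to 27 members were called, where 31% to 38.8% of all probe sets were. At 1 h, 1 became 2 with the replicate block, quantile normalization, median centring or array weights (257323_at of nad1 was added). With only the 6 arrays compared it also became 2 (257325_at of nad1). In these fits 1.94% to 4.62% of all probe sets were called, against 3.44% in the main fit. Without single arrays 1 to 2 members were called, where 1.94% to 3.66% of all probe sets were. For the difference between effects, 16 became 10 with a pseudocount of 1, where the share of all probe sets called went from 17.8% to 14.4%. Without single arrays 10 to 16 members were called, the lowest without replicate 1 of ethanol at 4 h. In those fits 14.2% to 17.7% of all probe sets were called. For time in oligomycin, 21 became 13 with a pseudocount of 1, where the share of all probe sets called went from 33.7% to 30.8%. Without single arrays 16 to 21 members were called, where 27.8% to 35.9% of all probe sets were. In ethanol 0 were called in each case, where at most 0.585% of all probe sets were. With the replicate block the calls at 4 h stayed 26, all shared, and those for the difference between effects became 14. Of all probe sets 36.4% and 17.2% were called in these fits.

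The median change of the members at 1 h, 0.09, was 0.198 with a pseudocount of 1 and 0.0433 to 0.161 without single arrays, lowest and highest without replicates 1 and 3 of oligomycin at 1 h. At 4 h the median, 0.538, was 1.06 with a pseudocount of 1, 0.37 with 32, 0.635 after quantile normalization, 0.699 after median centring, 0.913 without the dimmest 40%, and 0.501 to 0.662 without single arrays. Of 454 alternative values for the 21 members given array by array under the rule, 451 kept the direction and side of the threshold and 3 brought 257327_at of nad1 under it. A larger pseudocount shrinks changes near the background by construction. The causes of the other shifts were not tested. Signal near background limits what can be said of the 12 members that never passed 15.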
